A study of Mus musculus with 8 samples.

Results

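The 4 heavy-chain joining genes of the mouse, IGHJ1 to IGHJ4, were followed through the antibody heavy chains of spleen germinal-centre B cells from wild-type (WT) and Dtx1 knockout (KO) mice. The cells were chosen by 1 rule: a barcode had to carry exactly 1 heavy and exactly 1 light chain, and it was then assigned by the J gene that the deposited annotation gave its heavy chain. This gave 40603 paired cells out of 45506 barcodes with exactly 1 heavy contig, and every one of them carried IGHJ1 (7035 cells), IGHJ2 (12276), IGHJ3 (10662) or IGHJ4 (10630). All 48952 heavy contigs in the tables named 1 of the 4 genes.

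A heavy-chain variable region is built in the bone marrow when a D segment is joined to a J segment and a V segment is then joined to that product. The third complementarity-determining region (CDR3) spans these joins. Its end is encoded by the J segment and its last residue is a tryptophan (W) shared by all J segments, while the rest of the J segment encodes framework 4, the closing strand of the variable domain. At the joins bases are trimmed and non-templated bases are added, so the number of J bases left in the CDR3 differs from cell to cell. The J gene chosen stays with a B cell and its progeny, and in the germinal centre the joined region is further changed by somatic hypermutation and can be linked to another constant region by class switching.

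The deleted gene, Dtx1, encodes the E3 ubiquitin ligase Deltex-1, a protein of the Notch pathway, and the question of the series was what it does for germinal-centre B cells. The 8 libraries were 4 from Dtx1+/+ mice (WT) and 4 from Dtx1-/- mice (KO), and all were droplet receptor libraries of peanut agglutinin-enriched spleen cells taken on day 10 after immunization. The sources used here give neither the immunogen nor the age or number of the mice, and they do not say whether a library was 1 mouse. A library held 4585 to 5712 paired cells (18707 WT and 21896 KO cells in all) and 754954 to 1155339 unique molecular identifiers (UMIs).

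Libraries of a genotype shared many receptors. Between libraries of the same group 682 to 992 clonotypes were shared (21.1 to 25.6% of the smaller list), against 5 to 13 (0.164 to 0.398%) between libraries of different groups. Library pairs shared 28 to 54 barcodes within a group and 29 to 46 between groups, and none of the shared barcodes carried the same receptor. The libraries of a group therefore draw on the same clones. Every p-value below for a difference between the groups compares 1 set of WT clones with 1 set of KO clones, not separate animals. The contrasts within libraries, given later, are tested over libraries drawn from these same sets of clones. Their library values are thus not independent, and their p-values do not stand for separate animals either. Differences between libraries were tested by exact two-sided permutation over all 70 assignments of libraries to groups, where the smallest possible p is 0.0286, and a difference was called at p under 0.05. Adjusted p-values are Benjamini-Hochberg values over the 4 J genes of a measure.

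Receptor tables hold no transcripts of Dtx1 or of germinal-centre genes, so the genotype and the cell type could not be checked on them. Of the cells of each J gene, 63.0 to 67.7% in WT and 77.2 to 80.1% in KO carried no IGHV mutation, and 91.0 to 92.9% in WT and 92.6 to 94.4% in KO were IGHM cells. The median number of heavy-chain UMIs per cell was 22 to 23.5 for the 4 J genes in WT and 38.8 to 41.3 in KO. Its part in the differences described here was not tested, but values among cells with 20 to 40 UMIs are given where they change a call.

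The end that each J gene puts into the CDR3 is shown here because the length and end residues described later follow from it. Each sequence was built from the most common base at each position over the clones of that J gene in the deposited contigs. It was read inward from the CDR3 end as long as that base was found in most of the clones. The sequences are written 5′ to 3′, and the capitals mark the tryptophan codon that closes the CDR3.
IGHJ1: actggtacttcgatgtcTGG
IGHJ2: ctactttgactacTGG
IGHJ3: ggtttgcttacTGG
IGHJ4: actatgctatggactacTGG
These ends had 20, 16, 14 and 20 bases and were taken over 3155, 5525, 4336 and 4903 clones. The last base kept was found in 60.3, 53.3, 66.4 and 52.7% of clones, and the most common base before it in 41.2, 43.9, 47.9 and 47.5%. Framework 4, taken as the most common whole sequence over clones, had 31 bases after each of them, and it is shown because mutations in it are counted below.
IGHJ1 framework 4: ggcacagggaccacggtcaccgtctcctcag
IGHJ2 framework 4: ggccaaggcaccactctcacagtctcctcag
IGHJ3 framework 4: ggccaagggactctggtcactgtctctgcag
IGHJ4 framework 4: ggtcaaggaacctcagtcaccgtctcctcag
In RefSeq's annotation of GRCm38.p6, which is mm10, the genes lie close together on chromosome 12. Ighj1 is at chr12:113429781-113429833 (53 bases), Ighj2 at chr12:113429468-113429515 (48 bases), Ighj3 at chr12:113429085-113429132 (48 bases) and Ighj4 at chr12:113428514-113428567 (54 bases). With framework 4 taken off, these lengths leave 22, 17, 17 and 23 bases. The ends shown, whose lengths follow from the rule above, were shorter than these for all 4 genes.

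In KO cells IGHJ3 was used less, and IGHJ1 and IGHJ4 more, than in WT cells. IGHJ3 made up 28.2, 28.0, 28.9 and 28.6% of the paired cells in WT replicates 1 to 4 and 24.3, 24.7, 25.4 and 23.2% in KO replicates 1 to 4. Every KO library lay below every WT library. The mean fell from 28.4% ± 0.40 (SD, n = 4) to 24.4% ± 0.89 (exact permutation p = 0.0286, adjusted 0.0381).

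IGHJ1, the least used J gene in all 8 libraries, took 15.6, 16.4, 16 and 15.8% of WT cells and 18.5, 18.9, 18.6 and 18% of KO cells. The groups did not overlap, and the mean rose from 15.9% ± 0.32 to 18.5% ± 0.38 (n = 4 libraries each, exact permutation p = 0.0286, adjusted 0.0381). This rise was not found when each clone was counted once: IGHJ1 then took 17.8% ± 0.51 of WT and 17.4% ± 0.45 of KO clones, a difference of -0.448 percentage points (exact permutation p = 0.257). IGHV11-2 and IGHV12-3, V genes associated with B-1 cells, were found in 2.52% ± 0.29 of WT and 5.65% ± 1.34 of KO IGHJ1 cells, against at most 0.151% of WT and 0.709% of KO cells of any other J gene. Without these cells the IGHJ1 share was still called between the groups in the same direction.

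IGHJ4 took 25.4, 24.9, 25.6 and 25.5% of WT and 26.9, 26.2, 26.1 and 28.5% of KO cells, again without overlap. Its mean rose from 25.4% ± 0.31 to 26.9% ± 1.09 (n = 4 each, exact permutation p = 0.0286, adjusted 0.0381), and KO replicate 4 lay highest. Leaving out any of the WT libraries gave an exact permutation p of 0.0857, and among cells with 20 to 40 UMIs it was 0.0857 as well.

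IGHJ2, the most used J gene, took 30.8, 30.7, 29.5 and 30.1% of WT and 30.2, 30.3, 30.0 and 30.4% of KO cells. The groups overlapped (30.3% ± 0.61 and 30.2% ± 0.17, n = 4 each, exact permutation p = 0.857). With each clone counted once IGHJ2 was higher in KO, at 29.7% ± 0.74 of WT and 31.1% ± 0.20 of KO clones (n = 4 each, exact permutation p = 0.0286, adjusted 0.0381). In the same count IGHJ3 fell from 25.8% ± 0.71 to 23.7% ± 1.00 and IGHJ4 rose from 26.6% ± 0.35 to 27.9% ± 0.85 (n = 4 each, exact permutation p = 0.0286 for both). The fall of IGHJ3 was thus called on cells and on clones, while the change of IGHJ1 was called on cells alone. Within each genotype the order of the mean cell shares was IGHJ2, IGHJ3, IGHJ4, IGHJ1 in WT and IGHJ2, IGHJ4, IGHJ3, IGHJ1 in KO.

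**Figure D1:**
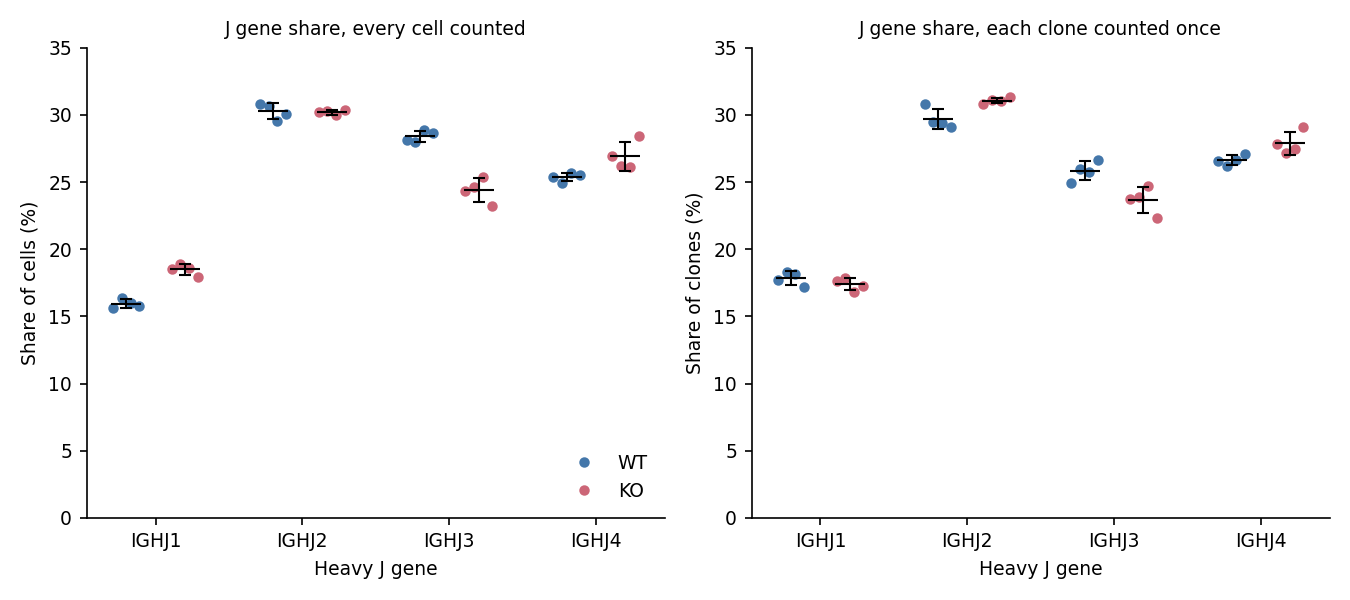
Share of each heavy J gene among paired cells (left, percent) and among clones of a library (right, percent), 1 point per library, with the mean and SD (bars) of 4 WT (blue) and 4 KO (red) libraries. IGHJ3 is lower in every KO library in both panels, and the IGHJ1 groups are apart on cells (15.9 and 18.5%) but overlap on clones (17.8 and 17.4%).

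CDR3 length differed by J gene within every library. CDR3s with IGHJ1 and IGHJ4 were on average 15.3 and 15.2 residues long, and those with IGHJ2 and IGHJ3 were 13.6 and 13.8 residues long (means of 8 libraries). Within a library IGHJ1 exceeded the mean of the other 3 genes by 1.13 residues and IGHJ4 by 0.92, while IGHJ2 was shorter by 1.15 and IGHJ3 by 0.90 (differences of -1.15 ± 0.18 and -0.904 ± 0.080, SD, n = 8). Each sign was the same in all 8 libraries, and each exact permutation p over all sign patterns was 0.0078, the smallest that the 8 libraries can give, with an adjusted p of 0.0195 over 20 such contrasts.

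The spread of lengths also differed. At least 18 residues were found in 16% of WT and 20.4% of KO IGHJ1 cells and in 19.2 and 21.8% of IGHJ4 cells, but in 5.69 and 6.59% of IGHJ2 and 5.44 and 5.84% of IGHJ3 cells. CDR3s of at most 10 residues made up 12.9 and 12.4% of IGHJ2 cells, 8.13 and 8.92% of IGHJ3 cells and at most 3.74% of IGHJ1 or IGHJ4 cells of either group. The most frequent length in WT was 16 residues for IGHJ1 (19.7% of cells), 14 for IGHJ2 (17.1%), 13 for IGHJ3 (16.4%) and 15 for IGHJ4 (17.1%).

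**Figure D2:**
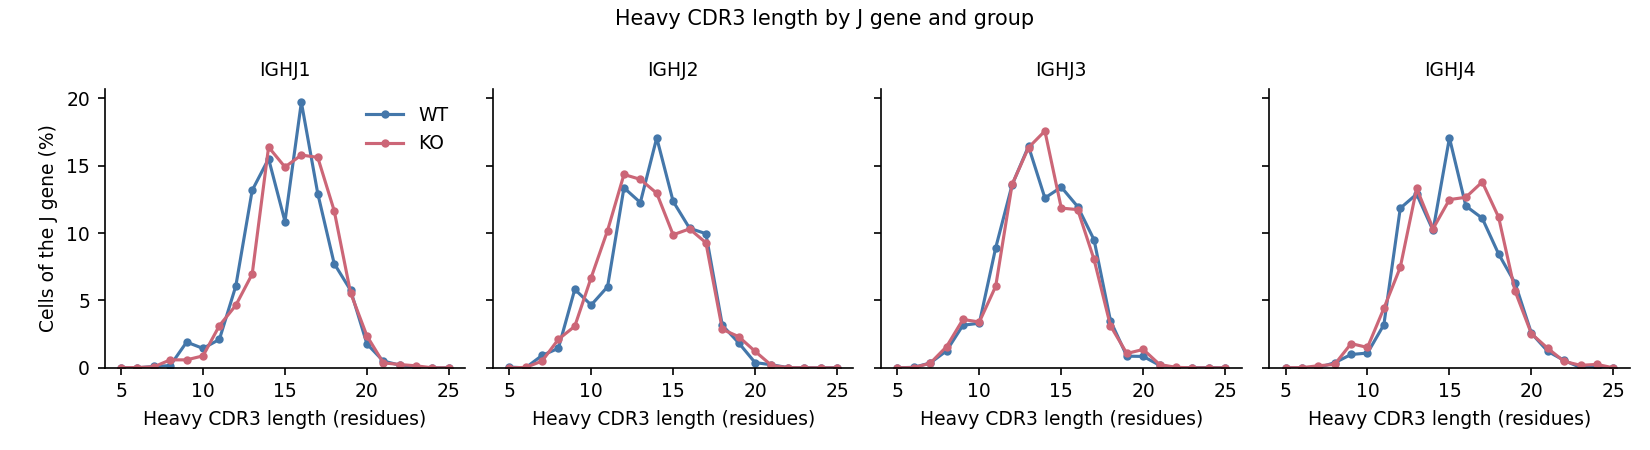
Distribution of heavy CDR3 length (residues) over the cells of each J gene (percent of cells), pooled over 4 WT (blue) or 4 KO (red) libraries. IGHJ2 and IGHJ3 have 10 residues or fewer more often than IGHJ1 and IGHJ4, and the WT curve of IGHJ1 peaks at 16 residues with 19.7% of cells.

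Between the groups the lengths were close. With IGHJ1 the mean length was 15.1, 15.2, 15.2 and 15.1 residues in the WT libraries and 15.4, 15.6, 15.5 and 15.6 in the KO libraries. The groups did not overlap, and the difference was 0.358 residues (15.2 ± 0.049 and 15.5 ± 0.083, n = 4 each, exact permutation p = 0.0286, adjusted 0.0571). Among cells with 20 to 40 UMIs it was 0.135 residues (exact permutation p = 0.0857). IGHJ4 gave 15.1 ± 0.076 and 15.3 ± 0.041 residues (n = 4 each, exact permutation p = 0.0286, adjusted 0.0571), but with each clone counted once the difference turned to -0.0507 residues (exact permutation p = 0.4). For IGHJ2 (13.7 ± 0.075 and 13.6 ± 0.089 residues, exact permutation p = 0.143) and IGHJ3 (13.8 ± 0.053 and 13.8 ± 0.056, p = 0.686) no difference was called on cells. With each clone counted once both were shorter in KO, by differences of -0.206 and -0.119 residues (exact permutation p = 0.0286 for each).

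To see which portion of the CDR3 carried these lengths, the bases at the CDR3 end that match the sequences shown above without a mismatch were counted as the J part, and all bases before them as the remaining part. A mutation within the J end shortens the J part under this rule. The J part averaged 18 and 18.3 bases in WT and KO for IGHJ1, 12.5 and 12.9 for IGHJ2, 12.4 and 12.8 for IGHJ3 and 16.8 and 17.6 for IGHJ4. The J part thus separated the long pair of genes from the short pair, while the remaining parts lay between 27.5 and 29.0 bases for all genes and groups.

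Within libraries the remaining part was longer for IGHJ3 than for the other 3 genes, by 0.704 ± 0.18 bases (SD, n = 8, higher in 8 of 8 libraries, exact permutation p = 0.0078, adjusted 0.0195). IGHJ3 therefore had the shortest J part and the longest remaining part under this rule. The J ends shown above cover 14 of 17 annotated bases for IGHJ3, 16 of 17 for IGHJ2, 20 of 22 for IGHJ1 and 20 of 23 for IGHJ4. Annotated J bases beyond these ends count as remaining, so the excess cannot be assigned to V, D or added bases. Among cells with 20 to 40 UMIs this excess was 0.244 bases (exact permutation p = 0.0938). For IGHJ1, IGHJ2 and IGHJ4 the contrasts were -0.626 ± 0.71, -0.168 ± 0.51 and 0.0908 ± 0.33 bases (n = 8), and none was called (exact permutation p = 0.0703, 0.391 and 0.461).

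More J bases were kept in KO than in WT for all 4 genes. The largest difference was that of IGHJ4, whose J part was 16.8, 16.7, 16.9 and 16.6 bases in the WT and 17.6, 17.5, 17.6 and 17.6 bases in the KO libraries. All KO values exceeded all WT values, by 0.815 bases on average (exact permutation p = 0.0286, adjusted 0.0286). The differences for IGHJ1, IGHJ2 and IGHJ3 were 0.254, 0.345 and 0.324 bases (n = 4 libraries each, exact permutation p = 0.0286 for each). In cells with no IGHV mutation IGHJ4 still differed by 0.526, IGHJ3 by 0.247 and IGHJ2 by 0.214 bases (n = 4 each, exact permutation p = 0.0286 for each). For IGHJ1 the difference in those cells was -0.0319 bases (exact permutation p = 0.6), and with 20 to 40 UMIs it was 0.0097 bases (p = 0.943, exact permutation). For IGHJ3 the exact permutation p with 20 to 40 UMIs was 0.0571.

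The whole J end shown above was kept in 48.1% ± 1.44 of WT and 51.0% ± 1.34 of KO IGHJ1 cells and in 51.5% ± 0.86 and 58.2% ± 0.79 of IGHJ3 cells. For IGHJ2 the shares were 29.0% ± 1.41 and 35.9% ± 0.49, and for IGHJ4 32.6% ± 1.61 and 37.8% ± 0.63 (SD, n = 4 libraries each). The ends cover 20 of 22, 16 of 17, 14 of 17 and 20 of 23 annotated bases for IGHJ1 to IGHJ4, so these shares do not compare trimming between the genes. In cells with no IGHV mutation the IGHJ1 values were 54.2% ± 2.08 in WT and 53.9% ± 1.70 in KO, and those of IGHJ3 were 52.8% ± 0.55 and 61.5% ± 1.23. These shares are given as a description and were not tested.

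The remaining part moved in different directions. It was longer in KO for IGHJ1 (27.5 ± 0.19 and 28.3 ± 0.27 bases) and shorter for IGHJ2 (28.5 ± 0.26 and 27.9 ± 0.26 bases), each with n = 4, an exact permutation p of 0.0286 and an adjusted p of 0.0571. IGHJ3 (29.0 ± 0.15 and 28.7 ± 0.14, p = 0.0571) and IGHJ4 (28.6 ± 0.35 and 28.2 ± 0.14, p = 0.171) were not called in the same exact permutation test. Counting each clone once brought both past the threshold, at -0.696 bases for IGHJ3 and -0.723 for IGHJ4 (exact permutation p = 0.0286 for each). In cells with no IGHV mutation both had the opposite sign, at 0.114 bases for IGHJ3 (exact permutation p = 0.343) and 0.352 for IGHJ4 (exact permutation p = 0.114), so no direction is given for them. The IGHJ2 difference in those cells was -0.143 bases (exact permutation p = 0.657), and with 20 to 40 UMIs it was -0.928 bases (exact permutation p = 0.0571). The IGHJ1 difference with 20 to 40 UMIs was 0.394 bases (exact permutation p = 0.0571).

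**Figure D3:**
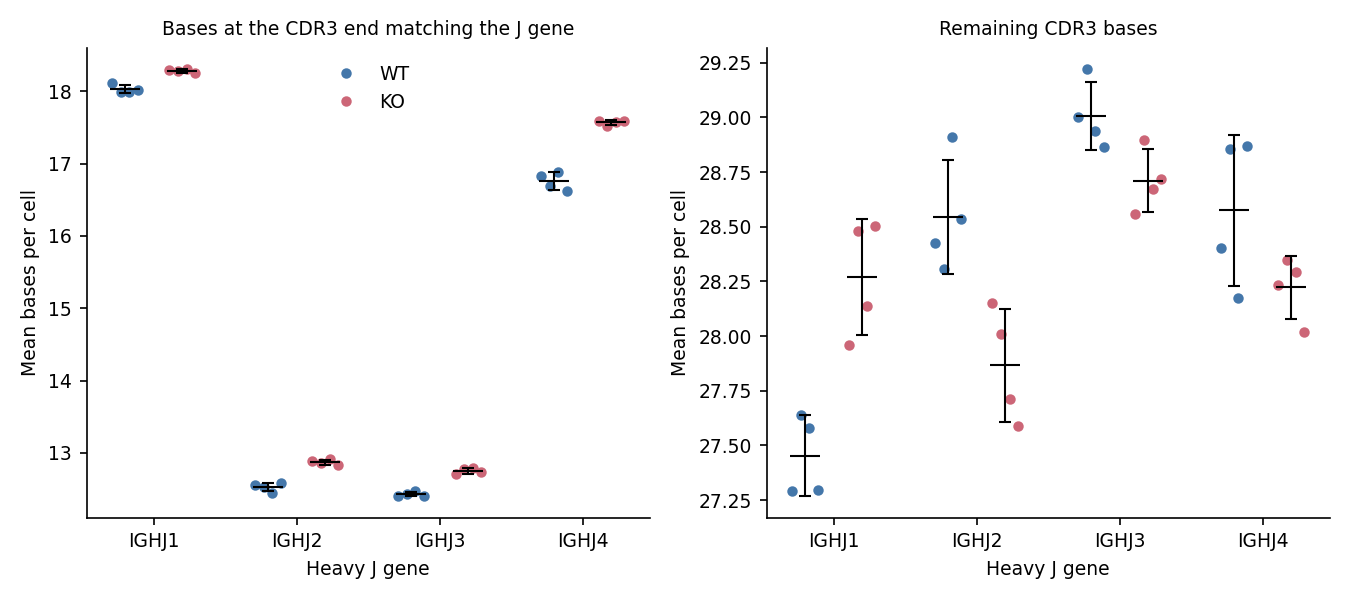
Mean number of CDR3 bases per cell in the J part (left) and in the remaining part (right) for each J gene, 1 point per library, with mean and SD bars of 4 WT (blue) and 4 KO (red) libraries; the axes do not start at 0. The J part separates IGHJ1 and IGHJ4 from IGHJ2 and IGHJ3, and IGHJ4 shows the widest gap between the groups (16.8 and 17.6 bases).

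The last 4 residues of the CDR3 differed in how uniform they were. IGHJ1 ended in FDVW in 96.9% ± 0.35 of WT and 98.0% ± 0.44 of KO cells, the highest share of any J gene. IGHJ2 was the least uniform: FDYW closed 68.6% ± 1.08 and 69.6% ± 0.86 of its CDR3s (n = 4 each, exact permutation p = 0.257). The next ends of IGHJ2 were LDYW, in 6.83% ± 0.51 of WT and 5.91% ± 0.64 of KO cells, and GDYW, in 3.78% ± 0.51 and 3.38% ± 0.43. In both the phenylalanine that the J segment encodes was replaced and the residues DYW after it were kept.

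IGHJ4 ended in MDYW far less often in WT than in KO. The share was 89.0, 88.4, 89.2 and 88.5% in the WT libraries and 95.7, 95.3, 95.8 and 95% in the KO libraries. The groups were well apart, at 88.8% ± 0.41 and 95.4% ± 0.37 (n = 4 each, exact permutation p = 0.0286, adjusted 0.0381). In cells with no IGHV mutation the shares were 90.1% ± 0.47 and 97.1% ± 0.40 (n = 4 each, exact permutation p = 0.0286).

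A few WT clones held much of the IGHJ4 difference. VDYW closed 3.71% ± 0.18 of WT and 0.781% ± 0.28 of KO IGHJ4 cells, and GDYW closed 2.81% ± 0.21 and 0.527% ± 0.20. Of 533 WT IGHJ4 cells with another end than MDYW, 78 belonged to a clone that paired IGHV2-5 with IGLV1, 54 to a clone of IGHV9-3 with IGLV1, 39 to a clone of IGHV1-62-2 with IGKV2-137 and 37 to a clone of IGHV1-81 with IGKV1-135. Each of these 4 clones was present in all 4 WT libraries, the largest with 21, 18, 16 and 23 cells. In KO 269 IGHJ4 cells had another end, and the largest clone among them had 9 cells. Counted by clones of a group, MDYW closed 91.9% of WT and 94.3% of KO clones. With each clone of a library counted once the difference was smaller but still called, at 3.33 percentage points (91.3% ± 0.37 and 94.6% ± 0.25, n = 4 each, exact permutation p = 0.0286).

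IGHJ3 ended in FAYW in 83.2, 82.2, 83.3 and 83.5% of WT and 84.4, 85.4, 85.6 and 85.2% of KO cells. The mean rose from 83.0% ± 0.56 to 85.2% ± 0.56 (n = 4 each, exact permutation p = 0.0286, adjusted 0.0381). With each clone counted once the difference was larger, 4.64 percentage points (80.3% ± 1.14 and 84.9% ± 0.79, exact permutation p = 0.0286). In cells with no IGHV mutation the difference was -0.0507 percentage points (87.0% ± 0.45 and 87.0% ± 0.81, exact permutation p = 0.971), and with 20 to 40 UMIs it was 1.59 points (exact permutation p = 0.171). Individual ends went in opposite directions. LAYW was found in 1.62% ± 0.62 of WT and 5.09% ± 0.32 of KO IGHJ3 cells, and the largest KO clones behind it paired IGHV10-1 with IGKV8-19 (64 cells) and IGHV1-62-2 with IGKV6-15 (57 cells). Counted by clones of a group it closed 2.59% of WT and 2.33% of KO clones, so the higher share in KO was seen on cells alone. GAYW was found in 3.45% ± 0.65 and 0.963% ± 0.41 of cells and in 2.22 and 1.51% of clones. The largest WT clones with another end than FAYW had mostly GAYW. They joined IGHV1-81 with IGKV1-135 (54 cells with another end) or IGKV13-84 (53 such cells), and the largest WT clone of GAYW cells had 53.

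The FDVW share of IGHJ1 was also called between the groups (exact permutation p = 0.0286, adjusted 0.0381), at a difference of 1.06 percentage points, and of 0.944 points over clones (exact permutation p = 0.0286). It missed the threshold without any of the WT libraries (exact permutation p = 0.0571 each), in cells with no IGHV mutation (0.209 points, exact permutation p = 0.629) and with 20 to 40 UMIs (0.605 points, exact permutation p = 0.514).

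The V partners of the 4 J genes were not the same. IGHV genes of the IGHV1 family, the largest of the mouse locus, made up 75.2% ± 0.83 of WT and 69.7% ± 1.67 of KO IGHJ3 cells but 57.2% ± 2.26 and 58.2% ± 0.72 of IGHJ4 cells. IGHJ4 carried the IGHV2 family in 16.8% ± 1.07 and 14.4% ± 0.85 of cells, against 5.40 and 4.92% of cells with the other J genes, and was higher in 8 of 8 libraries. IGHJ3 carried little of the IGHV8 family, 2.63% ± 0.44 in WT and 4.68% ± 0.43 in KO against 8.88 and 11.3% with the other J genes, and was lower in 8 of 8 libraries. The IGHV9 family was more frequent with IGHJ1 than with the other J genes in 8 of 8 libraries, at 10.3% ± 1.38 in WT and 6.58% ± 0.47 in KO. These comparisons of J genes are counts of libraries, with no test.

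Single V genes showed the same unevenness. IGHV2-5 was found in 9.26% ± 0.83 of WT and 4.91% ± 0.66 of KO IGHJ4 cells, and in 2.62 and 1.12% of cells with another J gene. IGHV1-62-2 was found in 7.87% ± 0.56 and 5.75% ± 0.20 of IGHJ3 cells, and in 2.33 and 0.618% of the other cells, and IGHV1-71 in 5.76% ± 0.43 and 4.59% ± 0.56 of IGHJ3 cells against 1.59 and 1.13%. All 3 were higher with the named J gene in 8 of 8 libraries. The most used partner of IGHJ1 was IGHV9-3 (9.81% ± 1.26 of WT and 5.57% ± 0.41 of KO cells), that of IGHJ2 was IGHV1-81 (10.6% ± 0.85 and 6.96% ± 0.51) and that of IGHJ3 was IGHV1-9 (9.93% ± 0.59 and 7.35% ± 0.99), of which 1 WT clone held 254 cells.

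The number of cells per IGHV-IGHJ pair was compared between the groups with edgeR's quasi-likelihood test over all pairs with at least 10 cells in at least 4 libraries. Of 155 pairs 91 (58.7%) had an adjusted p under 0.05, 51 of them (32.9%) higher and 40 (25.8%) lower in KO. By J gene 15 of 28 IGHJ1 pairs were called (11 higher, 4 lower), 30 of 45 IGHJ2 pairs (17 and 13), 27 of 42 IGHJ3 pairs (11 and 16) and 19 of 40 IGHJ4 pairs (12 and 7). These shares lie on both sides of the share of all pairs, and in this fit IGHJ3 alone had more called pairs lower than higher. The median log2 fold change was 0.30 over the tested IGHJ1 pairs, 0.14 over IGHJ2, -0.07 over IGHJ3 and 0.16 over IGHJ4, against 0.13 over all pairs. DESeq2, whose size factors moved the median of all pairs to -0.0025, called 71 pairs, 31 higher and 40 lower. By J gene DESeq2 called 8 higher and 5 lower for IGHJ1, 10 and 14 for IGHJ2, 6 and 14 for IGHJ3 and 7 and 7 for IGHJ4, so under its scaling IGHJ2 too had more lower than higher pairs.

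Counting each clone once left 108 pairs to test, of which 32 (29.6%) were called. Pairs called on cells and on clones in the same direction numbered 6 for IGHJ1 (3 higher), 7 for IGHJ2 (5 higher), 10 for IGHJ3 (2 higher) and 7 for IGHJ4 (4 higher). IGHJ3 had the most pairs that fell on both counts, 8 of its 10.

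IGHV1-55 with IGHJ3 had the smallest p of the IGHJ3 pairs, with 130, 134, 135 and 138 cells in the WT and 64, 68, 72 and 42 cells in the KO libraries. It fell by 1.35 on the log2 scale (SE 0.10, edgeR adjusted p = 6.86e-10), and by 0.67 with each clone counted once (adjusted 0.0001). IGHV14-3 with IGHJ3 went from 28, 27, 27 and 28 to 14, 10, 6 and 9 cells (log2 -1.71, SE 0.22, edgeR adjusted p = 9.94e-07). With IGHJ2 the same V gene was called higher on cells (log2 1.89, SE 0.37, edgeR adjusted p = 0.00017). IGHV1-81 and IGHV1-62-2, both frequent partners of IGHJ3, changed by -0.75 and -0.67 on the log2 scale (edgeR adjusted p = 1.61e-06 and 2.14e-06) and stayed lower with each clone counted once (-0.57 and -0.72). IGHV1-81 was called lower on cells with IGHJ2 too (log2 -0.60, edgeR adjusted p = 1.95e-06), but not on clones (adjusted 0.66). It was not called on cells with IGHJ1 or IGHJ4 (adjusted 0.985 and 0.14). On cells IGHV1-62-2 fell more with IGHJ2 and IGHJ4 than with IGHJ3 (log2 -2.68 and -1.71, edgeR adjusted p = 6.86e-10 and 6.58e-06), but was not called with IGHJ1 (adjusted 0.284). With IGHJ2 it had 38, 39, 49 and 41 WT cells, and 1 WT clone of this pair held 108 cells. The IGHJ2 pair was not tested on clones. With IGHJ4 the fall was not called on clones (log2 -0.62, edgeR adjusted p = 0.159). IGHV1-55 was called lower on cells with IGHJ1 and IGHJ4 too (log2 -0.68 and -0.88, edgeR adjusted p = 0.0058 and 1.56e-05), but not with IGHJ2 (adjusted 0.0566). On clones it was called lower with IGHJ1 and IGHJ2 (log2 -0.87 and -0.41, edgeR adjusted p = 0.0041 and 0.0253), but not with IGHJ4 (log2 -0.064, adjusted 0.81). IGHV1-9 with IGHJ3 changed by -0.66 on cells and by 0.000901 on clones (edgeR adjusted p = 0.996), so its fall was called on cells alone.

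IGHV1-9 with IGHJ2 fell from 116, 109, 124 and 137 cells to 82, 53, 62 and 66 (log2 -1.11, SE 0.12, edgeR adjusted p = 1.77e-07). With IGHJ4 it was called lower on cells and clones (log2 -0.45 and -0.56, edgeR adjusted p = 0.0038 and 0.0078). With IGHJ1 it was called lower on clones alone (log2 -0.66, edgeR adjusted p = 0.004). IGHV14-2 with IGHJ2 rose from 12, 10, 14 and 16 cells to 50, 44, 45 and 58 (log2 1.69, SE 0.20, edgeR adjusted p = 5.41e-07), and IGHV1-85 rose with a log2 fold change of 1.54 (adjusted p = 7.91e-07). With IGHJ4 IGHV1-85 was called higher on cells (log2 3.58, edgeR adjusted p = 9.94e-07), from 3, 1, 1 and 0 WT cells. This pair was not tested on clones. IGHV14-2 was called higher on cells with IGHJ3 too (log2 1.08, SE 0.21, edgeR adjusted p = 0.00015), where the clone count missed the threshold (log2 0.71, adjusted p = 0.0591).

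Among IGHJ1 pairs IGHV2-5 fell from 37, 40, 43 and 45 cells to 15, 20, 21 and 19 (log2 -1.36, SE 0.17, edgeR adjusted p = 7.43e-07) and IGHV1-78 by 1.09 (adjusted p = 0.0015). IGHV1-59 rose from 11, 3, 5 and 6 cells to 24, 42, 30 and 19 (log2 1.95, SE 0.30, edgeR adjusted p = 8.97e-06). With IGHJ3 IGHV1-59 was called higher on cells and clones (log2 2.39 and 1.94, edgeR adjusted p = 7.42e-06 and 1.67e-05). It was not called on cells with IGHJ2 or IGHJ4 (adjusted 0.284 and 0.111). IGHV1-78 was called lower on cells and clones with IGHJ3 (log2 -1.27 and -0.92) and IGHJ4 (log2 -0.72 and -0.96). Its edgeR adjusted p was at most 0.0263 in each of these tests. With IGHJ2 it was not called (adjusted 0.707). IGHV2-5 also fell with IGHJ4, its most frequent J gene, from 122, 94, 116 and 108 to 59, 77, 80 and 73 cells (log2 -0.83, SE 0.11, edgeR adjusted p = 9.94e-07). On cells it was called lower with IGHJ2 and IGHJ3 too (log2 -1.63 and -0.74, edgeR adjusted p = 7.53e-06 and 0.0077). With IGHJ4 the largest rise among the pairs called on cells and clones was that of IGHV1-80, from 6, 10, 7 and 8 to 38, 47, 33 and 27 cells (log2 1.98, SE 0.23, edgeR adjusted p = 5.41e-07). IGHV1-80 was called higher on cells and clones with IGHJ2 and IGHJ3 too (log2 0.57 and 0.94 on cells, edgeR adjusted p = 0.0157 and 0.0018). With IGHJ1 it was called higher on cells (log2 1.41, edgeR adjusted p = 0.00024) and not tested on clones. IGHV1-72, the V gene known from responses to the hapten nitrophenyl, rose with IGHJ4 as well (log2 1.16, SE 0.16, edgeR adjusted p = 2.41e-06). With IGHJ1 and IGHJ2 it was called higher on cells (log2 1.22 and 0.86, edgeR adjusted p = 7.91e-07 and 3.69e-06) but not on clones. With IGHJ3 it was not called (log2 0.11, edgeR adjusted p = 0.707).

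IGHV8-8 was called higher on cells with all 4 J genes, and on clones with IGHJ1, IGHJ2 and IGHJ4. For these 3 its log2 fold changes were 0.95 (SE 0.12), 0.59 (SE 0.09) and 0.54 (SE 0.10) on cells and 0.51, 0.74 and 0.40 on clones (edgeR adjusted p at most 0.0253 in each of the 6 tests). With IGHJ1 it went from 34, 37, 28 and 33 cells to 71, 77, 81 and 70, without overlap. With IGHJ3 it went from 27, 27, 31 and 22 cells to 51, 47, 48 and 48, a log2 fold change of 0.63 (SE 0.14, edgeR adjusted p = 0.00081), and of 0.29 on clones (edgeR adjusted p = 0.26).

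**Figure D4:**
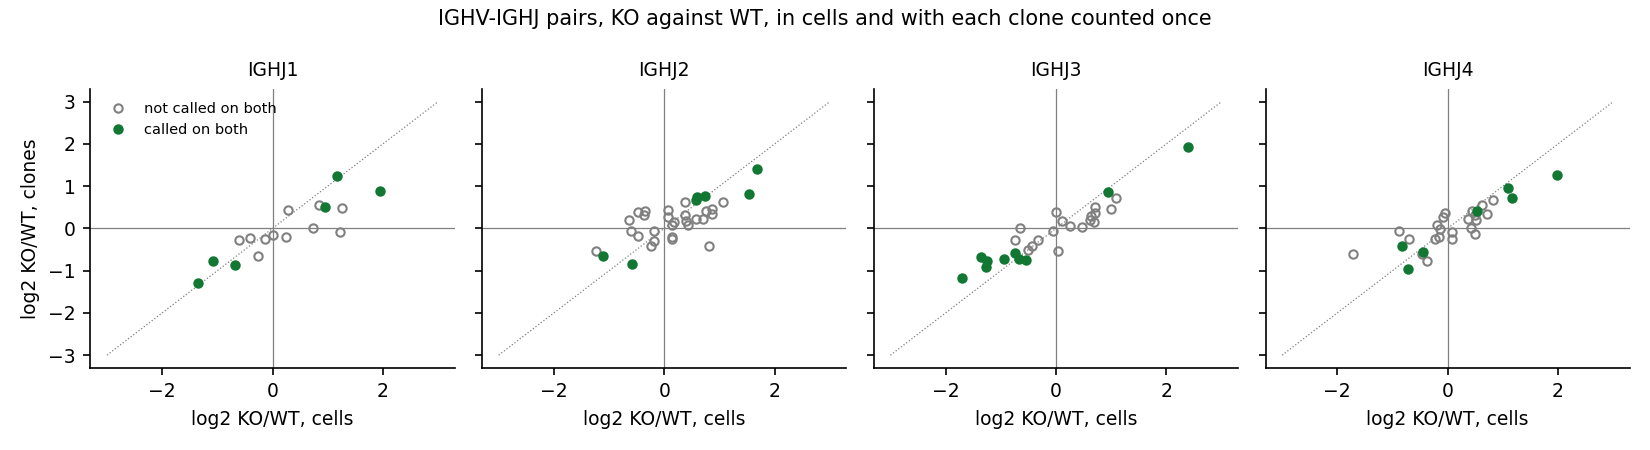
log2 KO/WT fold change of IGHV-IGHJ pairs on cells (horizontal) and with each clone counted once (vertical), for the 108 pairs tested on both, 1 panel per J gene; filled green points are called on both in the same direction and open grey points are not. Of the 10 filled IGHJ3 points 8 lie in the lower left, against 3 of 6, 2 of 7 and 3 of 7 for IGHJ1, IGHJ2 and IGHJ4.

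A D gene was named for 9280 of the paired cells, between 20.2 and 26.7% of the cells of a J gene and group, so D usage rests on a minority of cells. IGHD1-1 was the most frequent D gene with IGHJ1, IGHJ2 and IGHJ4 in both groups and with IGHJ3 in KO, where IGHD2-4 led in WT. Its share varied from 55.0% ± 3.93 of WT and 48.6% ± 2.11 of KO IGHJ2 cells with a D call to 17.3% ± 1.89 and 22% ± 1.71 of IGHJ3 cells. With IGHJ2 and IGHJ1 (42.9% ± 4.36 and 47.1% ± 5.13) its share was above that of the other J genes pooled in 8 of 8 libraries. With IGHJ3 it was below in 8 of 8. IGHJ3 instead carried IGHD2-4 (19.6% ± 1.95 and 18.7% ± 1.86) and IGHD3-2 (14.2% ± 1.21 and 16.7% ± 1.22) more often than the other J genes pooled. Their pooled shares were 9.43 and 12% for IGHD2-4 and 4.44 and 5.39% for IGHD3-2. Both were higher with IGHJ3 than with the pooled others in 8 of 8 libraries.

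IGHJ4 cells carried IGHD1-1 in 31.0% ± 5.73 and 35.3% ± 4.22, IGHD2-3 in 13% ± 1.60 and 13.1% ± 1.11 and IGHD2-6 in 13.9% ± 1.77 and 10.4% ± 2.74. They carried IGHD2-4 in 9.08% ± 3.78 in WT and 19.3% ± 1.28 in KO, where this mean was above the 18.7% of IGHJ3. IGHD4-1 was frequent with IGHJ1 in WT (17.9% ± 0.93) and less so in KO (11.7% ± 1.45), and IGHD2-8 made up 7.45% ± 1.15 and 9.29% ± 1.09 with IGHJ2.

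In the edgeR test of IGHD-IGHJ pairs 14 of 30 (46.7%) were called on cells, 6 higher and 8 lower in KO. On clones 1 of 28 (3.57%) was called, and DESeq2 called 2 of the pairs tested on cells. Leaving out 1 library left 7 to 13 pairs called. The pair called on cells and on clones was IGHD2-4 with IGHJ4, which rose from 26, 25, 27 and 9 cells in WT to 74, 65, 65 and 55 in KO (log2 1.27, SE 0.16, edgeR adjusted p = 3.70e-09, and log2 0.90 with adjusted p = 0.00081 on clones). WT replicate 4 lay well below the other WT libraries, and all KO libraries were above all WT libraries.

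The class-switched share of cells was alike in size for the 4 J genes, and no difference between the groups was called. Switched cells made up 6.92% ± 0.87 of WT and 5.31% ± 0.95 of KO IGHJ1 cells, 8.19% ± 1.57 and 6.82% ± 0.71 of IGHJ2, 6.60% ± 0.52 and 7.36% ± 1.17 of IGHJ3 and 7.79% ± 0.86 and 6.82% ± 0.36 of IGHJ4 cells (n = 4 each, exact permutation p = 0.0857, 0.114, 0.343 and 0.114). Over clones, the switched share was called lower in KO for IGHJ1, IGHJ2 and IGHJ4, with differences of -1.97, -2.26 and -2.12 percentage points (exact permutation p = 0.0286 for each). Among cells with 20 to 40 UMIs the mean share was instead higher in KO for all 4 genes, at 5.86 and 6.92% for IGHJ1, 6.15 and 7.47% for IGHJ2, 5.36 and 8.45% for IGHJ3 and 4.98 and 8.19% for IGHJ4. Of these the IGHJ4 difference of 3.20 points was called (exact permutation p = 0.0286), and no direction is given for the switched share of any J gene. Within libraries IGHJ1 cells were switched less often than cells with the other J genes, by a difference of -1.15 ± 1.24 points (SD, n = 8, lower in 7 of 8 libraries, exact permutation p = 0.0313, adjusted 0.0625), which shrank to -0.376 points with 20 to 40 UMIs (exact permutation p = 0.633).

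Switched KO cells were mostly IGHG1 cells whatever the J gene. IGHG1 took 42.5, 38.9, 41.8 and 34.7% of switched IGHJ2 cells in WT and 80.2, 81.1, 78.3 and 75.9% in KO. The gap between the groups was wider than the spread within either of them. Means were 50.4% ± 4.02 and 75.9% ± 6.79 for IGHJ1, 39.5% ± 3.54 and 78.9% ± 2.30 for IGHJ2, 48.5% ± 4.11 and 79.6% ± 3.33 for IGHJ3 and 46.5% ± 2.05 and 79.6% ± 1.77 for IGHJ4 (n = 4 each, exact permutation p = 0.0286 for each). For IGHJ1, the gene with the fewest switched cells, the exact permutation p with 20 to 40 UMIs was 0.0857. IGHG2B cells were 1.78 to 2.76% of WT and 0.788 to 0.904% of KO cells of a J gene, IGHG3 cells 1.01 to 1.68% and 0.348 to 0.553%, and IGHG2C cells 0.148 to 0.479% and 0.0792 to 0.107%. IGHA was named in 2 IGHJ2, 2 IGHJ3 and 5 IGHJ4 cells of WT and in 1 IGHJ3 cell of KO. IGHD, a constant gene of naive cells, was found in 0.471 to 1.05% of WT and 0.0531 to 0.270% of KO cells and was highest with IGHJ1 in both groups.

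Among IGHM cells the J genes were used in shares of 16% ± 0.46, 30.0% ± 0.63, 28.7% ± 0.41 and 25.3% ± 0.13 in WT and 18.7% ± 0.41, 30.2% ± 0.32, 24.2% ± 0.83 and 26.9% ± 1.13 in KO for IGHJ1 to IGHJ4. Among IGHG1 cells they were 16.4% ± 1.37, 29.1% ± 5.48, 27.0% ± 2.47 and 27.5% ± 4.76 in WT and 14.3% ± 3.60, 30.9% ± 2.67, 27.1% ± 4.19 and 27.7% ± 1.40 in KO. The IGHG1 shares vary widely between libraries, as they rest on 103 to 183 WT and 164 to 354 KO cells per J gene.

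Fewer mutations were found in KO than in WT cells with every J gene. IGHV mutation frequency, the share of V bases that differ from the most common sequence of the gene, was 0.444, 0.492, 0.424 and 0.459% with IGHJ2 in WT and 0.250, 0.238, 0.241 and 0.218% in KO. The groups did not overlap. Means for IGHJ1 to IGHJ4 were 0.406% ± 0.037, 0.455% ± 0.028, 0.418% ± 0.013 and 0.436% ± 0.020 in WT and 0.197% ± 0.028, 0.237% ± 0.013, 0.229% ± 0.021 and 0.219% ± 0.020 in KO (n = 4 each, exact permutation p = 0.0286 for each, adjusted 0.0286). Within libraries IGHJ2 cells carried more V mutations than cells with the other J genes, by 0.0282 ± 0.017 percentage points in 8 of 8 libraries (exact permutation p = 0.0078, adjusted 0.0195). IGHJ1 cells carried fewer, with a difference of -0.0308 ± 0.034 points in 7 of 8 libraries (exact permutation p = 0.0156, adjusted 0.0347), which was -0.0191 points among IGHM cells (exact permutation p = 0.0859).

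Framework 4, which each J gene encodes by itself, was mutated less than the V region. Its mutation frequency was 0.0793% ± 0.021 in WT and 0.0471% ± 0.0084 in KO for IGHJ1, 0.131% ± 0.0099 and 0.0551% ± 0.011 for IGHJ2, 0.107% ± 0.023 and 0.0475% ± 0.0060 for IGHJ3 and 0.103% ± 0.010 and 0.0520% ± 0.0068 for IGHJ4. Each was lower in KO (n = 4 each, exact permutation p = 0.0286 for each). With 20 to 40 UMIs the exact permutation p was 0.171 for IGHJ1, 0.0571 for IGHJ2 and 0.371 for IGHJ4.

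The changes were spread over many clones. Counting positions from 1 at the 5′ start of the framework 4 sequences shown above, the position mutated in most clones was 13 in IGHJ2 (53 clones, most often A13G), 6 in IGHJ4 (42 clones, A6G), 6 in IGHJ3 (28 clones, A6G) and 2 in IGHJ1 (21 clones, G2A). Position 29 of IGHJ3 was mutated in as many clones (28, most often C29T). Second by clones were position 13 in IGHJ1 (16 clones, most often A13G) and position 6 in IGHJ2 (39 clones, most often A6G). In no clone did more than 3 cells carry a mutation at any of these 7 positions, so none of them rests on a single large clone.

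The weight of clones differed by J gene. Clone weighting is the share of a J gene among cells over its share among clones of a library, and a value above 1 marks a gene whose clones are larger than average. For IGHJ1 it was 0.882, 0.895, 0.881 and 0.920 in WT and 1.05, 1.06, 1.11 and 1.04 in KO. It moved from below 1 in all WT libraries to above 1 in all KO libraries (0.895 ± 0.018 and 1.06 ± 0.029, n = 4 each, exact permutation p = 0.0286, adjusted 0.0381).

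IGHJ3 had the highest weighting in WT, 1.13, 1.08, 1.12 and 1.07, and fell to 1.03, 1.03, 1.03 and 1.04 in KO. IGHJ2 fell from 1.02 ± 0.020 to 0.972 ± 0.0058 (both genes n = 4 each, exact permutation p = 0.0286, adjusted 0.0381). IGHJ4 was at 0.952 ± 0.0081 and 0.965 ± 0.011 (n = 4 each, exact permutation p = 0.143). Within libraries IGHJ3 exceeded the other genes by 0.0877 ± 0.066 in 8 of 8 libraries and IGHJ4 lay below them, by -0.0551 ± 0.014 in 8 of 8 (exact permutation p = 0.0078, adjusted 0.0195, for both).

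Clones were also joined over the libraries of a group. Joined clones of at least 20 cells held 13.9% of WT and 20.1% of KO IGHJ1 cells, against 25.2 and 11.6% for IGHJ2, 32.6 and 18.1% for IGHJ3 and 20.2 and 9.43% for IGHJ4. The 10 largest clones held 10.3 and 14% of IGHJ1, 13.6 and 6.94% of IGHJ2, 16.6 and 8.64% of IGHJ3 and 9.97 and 6.07% of IGHJ4 cells. The mean number of cells per clone was 2.17 and 2.27, 2.48 and 2.04, 2.81 and 2.19, and 2.32 and 2.06 in the same order. On all 3 measures IGHJ1 had the larger value in KO and the other 3 genes the smaller one. For IGHJ4 this differs from its clone weighting, for which no difference was called. Each group gives a single value here, so they were not tested.

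The largest clone of each J gene and group is shown, and each held 1.02 to 4.78% of the cells of its J gene and group. Each sequence is the most common CDR3 of the clone, 5′ to 3′, with the J part in capitals.
IGHJ1 WT, IGHV12-3 with IGKV4-91: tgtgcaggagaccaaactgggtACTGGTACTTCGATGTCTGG
IGHJ1 KO, IGHV12-3 with IGKV4-91: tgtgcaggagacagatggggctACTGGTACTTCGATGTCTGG
IGHJ2 WT, IGHV1-62-2 with IGKV2-137: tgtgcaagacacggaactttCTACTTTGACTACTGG
IGHJ2 KO, IGHV5-17 with IGKV8-34: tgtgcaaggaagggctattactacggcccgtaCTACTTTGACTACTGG
IGHJ3 WT, IGHV1-9 with IGKV3-4: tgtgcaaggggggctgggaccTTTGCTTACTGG
IGHJ3 KO, IGHV1-62-2 with IGKV2-137: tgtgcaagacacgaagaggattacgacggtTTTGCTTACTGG
IGHJ4 WT, IGHV2-5 with IGLV1: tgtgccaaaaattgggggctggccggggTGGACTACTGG
IGHJ4 KO, IGHV1-18 with IGKV1-135: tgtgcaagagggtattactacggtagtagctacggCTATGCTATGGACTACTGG
The IGHJ1 clones, of the B-1-associated pair IGHV12-3 and IGKV4-91, had 48 cells in WT (9, 10, 14 and 15 in replicates 1 to 4) and 123 in KO (37, 22, 37 and 27). The printed CDR3 was carried by 19 of the 48 WT cells and 38 of the 123 KO cells. Whether these clones join separate rearrangements was not tested. Both printed CDR3s kept all 20 bases of the J end and had 14 residues. All cells of the 2 clones were IGHM cells with no IGHV mutation. The largest clone of all was the WT IGHJ3 clone of IGHV1-9 with IGKV3-4, with 254 cells (62, 74, 54 and 64), a J part of 12 bases and a CDR3 of 11 residues. It made up 4.78% of WT IGHJ3 cells, and 96.9% of its cells had no IGHV mutation.

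The other clones were smaller. The IGHJ2 clones had 108 cells in WT and 81 in KO, the KO IGHJ3 clone had 88, and the IGHJ4 clones had 78 in WT and 60 in KO. In the same order the printed CDR3 was carried by 55, 81, 30, 78 and 52 of these cells. The WT IGHJ4 clone kept 11 of the 20 J bases, as the sequence above shows, and it is the IGHV2-5 clone with the end VDYW counted earlier, while the KO IGHJ4 clone kept 19. The third largest WT IGHJ3 clone (82 cells) and the largest KO one (88 cells) both joined IGHV1-62-2 with IGKV2-137 in a CDR3 of 14 residues.

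**Figure D5:**
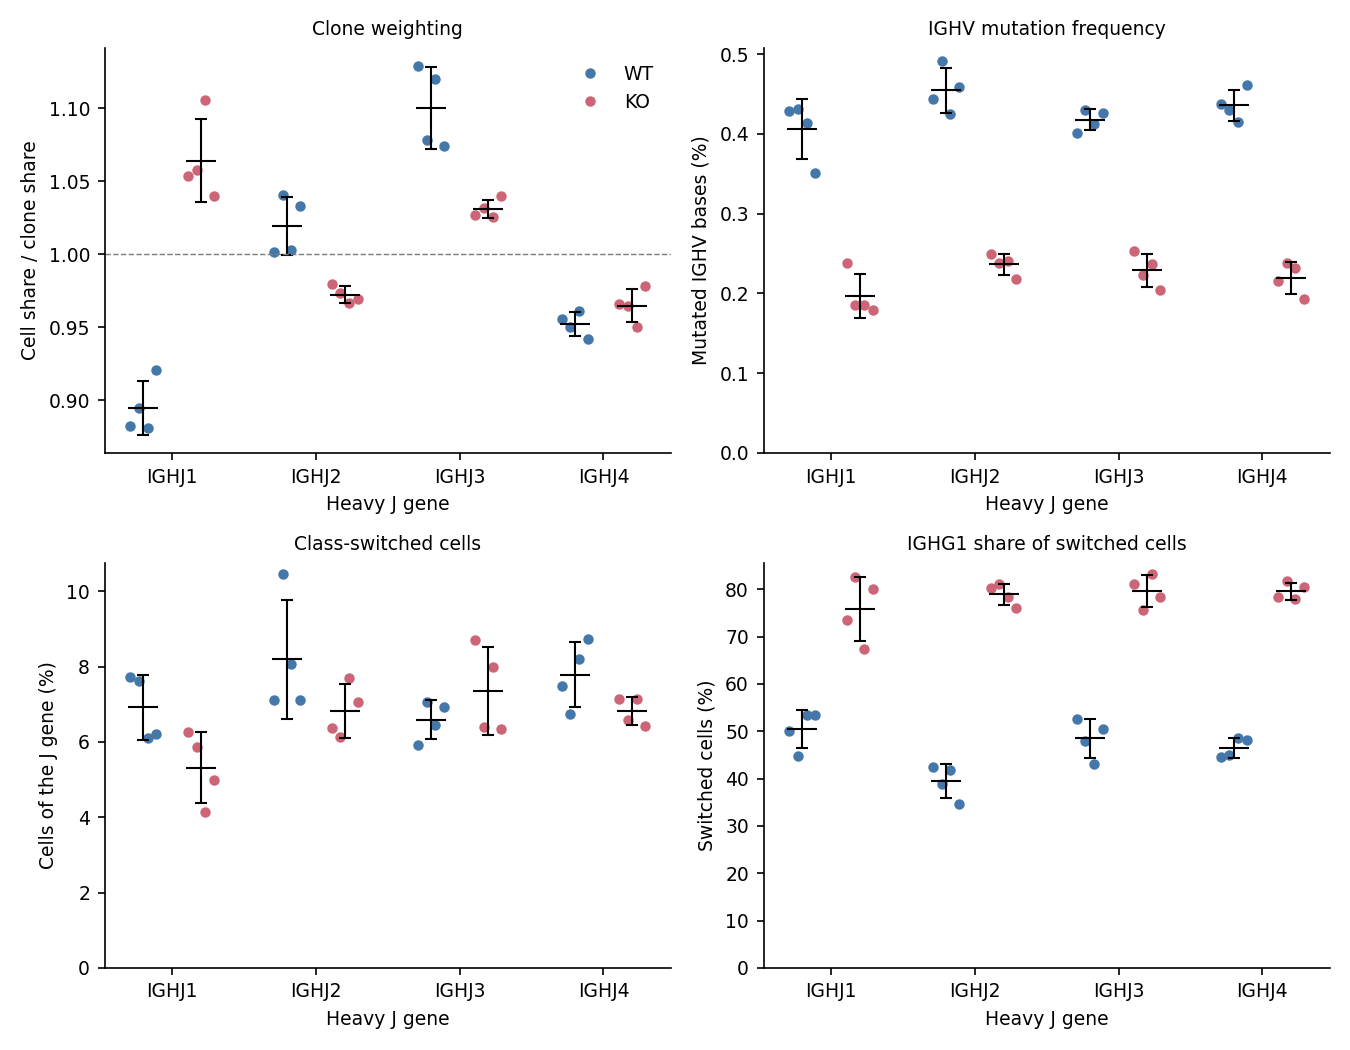
Clone weighting (cell share over clone share, dashed line at 1), IGHV mutation frequency (percent of bases), class-switched cells (percent of cells) and IGHG1 share of switched cells (percent) for each J gene, 1 point per library, with mean and SD bars of 4 WT (blue) and 4 KO (red) libraries; the clone weighting axis does not start at 0. Clone weighting of IGHJ1 is below 1 in WT and above 1 in KO, while mutation is lower and the IGHG1 share higher in KO for all 4 genes.

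Some heavy chains were found in both groups. Chains with the same V gene, J gene and CDR3 residues in WT and KO numbered 51 for IGHJ1 (3.34% of its WT and 2.60% of its KO chains), 51 for IGHJ2 (1.94 and 1.47%), 49 for IGHJ3 (2.20 and 1.88%) and 36 for IGHJ4 (1.52 and 1.16%). They were shorter than the average chain of their J gene, with a mean CDR3 of 14.1 residues against 15.5 for IGHJ1, 12.6 against 13.6 for IGHJ2, 12 against 13.9 for IGHJ3 and 12.7 against 15.3 for IGHJ4. Shared chains took 7.48% of WT and 7.45% of KO IGHJ1 cells and 8.41 and 6.23% of IGHJ3 cells, but 3.13 and 2.89% of IGHJ2 and 4.70 and 3.08% of IGHJ4 cells.

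Light chains differed between the groups in the same direction with each J gene. Lambda chains were found in 4.15% ± 1.14 of WT and 3.21% ± 0.56 of KO IGHJ1 cells, 6.01% ± 0.35 and 3.11% ± 0.29 of IGHJ2, 5.83% ± 0.35 and 2.68% ± 0.20 of IGHJ3 and 7.39% ± 0.49 and 3.30% ± 0.22 of IGHJ4 cells. The ranges overlapped for IGHJ1 alone, and these shares were not tested.

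Of 56 other V, D and J genes with at least 50 cells in every library, those whose relative share over the 8 libraries was most like that of a heavy J gene were mostly light J genes. By root mean square difference of the relative shares these were IGKJ5 (0.0366) and IGKJ4 (0.0408) for IGHJ1, IGKJ1 (0.0253) and IGKV13-84 (0.0555) for IGHJ2, IGKJ2 (0.0360) and IGHD4-1 (0.0714) for IGHJ3 and IGKJ1 (0.0447) and IGKV13-84 (0.0474) for IGHJ4. IGKJ5 went from 22.1% of cells in WT to 27.0% in KO and IGKJ2 from 32.9 to 28.8%, while IGKJ1 stood at 26.1 and 25.8%. The likeness is a description over 8 libraries that share clones within a group.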

How the data were processed

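Each deposited table lists assembled receptor contigs of 1 library with, per the file headers, whole-number read and UMI counts, gene names, region sequences and constant gene, and the authors' counts were used without normalization. The build was mm10 and the tools named were R 4.3.1 and Cell Ranger, per the submitters' processing notes. For Cell Ranger, the sources used here name no version. A test of the files showed every contig marked as cell, high-confidence, productive and full-length. Barcodes with more than 1 heavy contig (1723) were left out, and no doublet caller was run.

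Clones were cells with equal IGHV, IGHJ, light-chain genes and CDR3 length whose heavy CDR3s linked to another member at 0.85 or more nucleotide identity, within a library (25676 clones) or within a group (17919). Light CDR3s were not compared, so cells of separate rearrangements can fall into 1 clone. Mutations were counted against the most common sequence, over framework 1 to framework 3 for 77 of 97 IGHV genes with at least 20 clones (370 cells, 0.911%, had no value) and over framework 4 for each J gene. A mutation shared by most clones is missed by this. For 120 cells (0.296%) no constant gene was named, and they are not in the class shares. RefSeq's table of GRCm38.p6 gave coordinates. No genome was used, so the germline J bases were not read by position.

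Between groups, 40 single values were tested and 29 called, and within libraries 10 of 20 contrasts were called, by exact permutation. Pair counts were tested by edgeR's quasi-likelihood test (version 4.0.16, R 4.3.3) and again by DESeq2 1.42.0. In edgeR the size of a library was its paired cells for IGHV-IGHJ pairs and its cells with a D call for IGHD-IGHJ pairs. With each clone counted once it was the number of clones counted. Tables and figures were made in Python 3.11.15 with NumPy 2.4.6, pandas 2.3.3 and matplotlib 3.10.9. The scripts were tested on simulated data. A count of 3 cells is 0.0525 to 0.0654% of a library's paired cells (counting error only).

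The text names all 4 J genes, for each the 5 V and 4 D partners with the largest share, up to 4 pairs with the smallest p called on cells and clones in 1 direction, the largest clone per group, all constant genes, IGHV families of at least 1% of cells and the 2 most alike genes. Clones behind other CDR3 ends and other J pairs of the named V genes were named after their values were seen, and not every partner that the rule allows is printed. The members, gene lists, tests and alternatives were chosen with earlier results of these data known. Cells with no IGHV mutation, and cells without IGHV11-2 and IGHV12-3, were chosen as alternatives after seeing the data.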

Additional observations from a re-analysis of the deposited data

Results flagged for a closer look

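In 3 of the 80 sets of 4 libraries checked, 1 library lay apart from the other 3 by more than Dixon's critical value, and chance marks about 1 in 20 sets. The mean IGHJ4 CDR3 length of KO replicate 4 was 15.203 residues, against 15.276 to 15.291 in the other KO libraries. The IGHV mutation frequency of IGHJ1 cells in KO replicate 1 was 0.238%, against 0.179 to 0.185%. The framework 4 mutation frequency of IGHJ1 cells in WT replicate 4 was 0.111%, against 0.0676 to 0.0698%.

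The contrast of a J gene with the mean of the other 3 was itself compared between the groups for 5 measures, and 8 of 20 such differences had an exact permutation p of 0.0286, each with an adjusted p of 0.0714. For CDR3 length the contrast was 0.340 residues larger in KO for IGHJ1 and differed by -0.124 residues for IGHJ3. The IGHJ3 class-switched contrast rose by 2.08 percentage points, from -1.04 to 1.05, and its IGHV mutation contrast by 0.0261 points, from -0.0146 to 0.0115. The IGHJ1 contrast of the remaining CDR3 part went from -1.26 to 0.0040 bases, a difference of 1.26. Clone weighting contrasts differed by 0.204 for IGHJ1, -0.0845 for IGHJ2 and -0.114 for IGHJ3. All 4 libraries of a group lay on 1 side of all 4 of the other group in these 8 cases.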

How the results depend on the processing

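The values below are KO minus WT unless a contrast within libraries is named, those in parentheses are the main values, and the cause of each change was not tested. With each clone counted once the cell shares changed by -0.448 for IGHJ1 (2.54) and 1.36 percentage points for IGHJ2 (-0.0685), CDR3 length by -0.206 for IGHJ2 (-0.111), -0.119 for IGHJ3 (0.0098) and -0.0507 residues for IGHJ4 (0.154), the remaining part by -0.696 for IGHJ3 (-0.295) and -0.723 bases for IGHJ4 (-0.352), and switched shares by -1.97, -2.26 and -2.12 points for IGHJ1, IGHJ2 and IGHJ4 (-1.61, -1.38 and -0.971). Within libraries the IGHJ3 contrasts then became 0.963 points for switching (0.0038) and 0.0384 for IGHV mutation (-0.0016), and the group difference of the latter -0.0369 (0.0261). Pairs called fell to 32 for IGHV-IGHJ (91) and 1 for IGHD-IGHJ (14), and IGHV1-9 with IGHJ3 went to a log2 of 0.000901 (-0.66). Cells with 20 to 40 heavy-chain UMIs gave shares of 1.20 for IGHJ2 and 1.86 for IGHJ4 (1.55), CDR3 lengths of 0.135 for IGHJ1 (0.358) and 0.0577 for IGHJ4, J parts of 0.0097 for IGHJ1 (0.254) and 0.345 for IGHJ3 (0.324), remaining parts of 0.394, -0.928 and -0.584 for IGHJ1 to IGHJ3 (0.819, -0.679 and -0.295), modal ends of 0.605 for IGHJ1 (1.06) and 1.59 for IGHJ3 (2.12), a switched share of 3.20 for IGHJ4, an IGHG1 share of 22.8 for IGHJ1 (25.5), framework 4 mutation of -0.0219, -0.0517 and -0.0217 for IGHJ1, IGHJ2 and IGHJ4 (-0.0322, -0.0757 and -0.0505), contrasts within libraries of -0.376 (-1.15) for IGHJ1 switching and 0.244 (0.704) and 0.347 (0.0908) for the remaining part of IGHJ3 and IGHJ4, and a group difference of the IGHJ3 mutation contrast of -0.0152. IGHM cells alone gave mutation contrasts of -0.0191 for IGHJ1 (-0.0308) and -0.0096 for IGHJ3. All cells with 1 heavy contig gave switched shares of -1.56 for IGHJ1 and -1.31 for IGHJ4 and a contrast of -0.923 for IGHJ1. Without the largest clone of each J gene in each group, CDR3 length differed by -0.135 for IGHJ3 and 0.0908 for IGHJ4 and the remaining part by -0.686 for IGHJ3. In cells with no IGHV mutation the J part of IGHJ1 differed by -0.0319, the remaining part of IGHJ2 by -0.143 and modal ends by 0.209 for IGHJ1 and -0.0507 for IGHJ3. DESeq2 called 2 and at least 5 UMIs left 6 IGHD-IGHJ pairs; TMM factors called 50 higher and 43 lower IGHV-IGHJ pairs, and without a filter 132 of 360 were called. Leaving out 1 library ended or gave a call in these ranges: IGHJ4 share 1.04 to 1.83 (any WT library), IGHJ4 CDR3 length 0.124 to 0.178 (WT replicate 3, KO replicates 1 to 3), remaining part -0.774 to -0.557 for IGHJ2 (WT replicate 3), -0.357 to -0.223 for IGHJ3 (KO replicate 2) and -0.486 to -0.253 for IGHJ4 (WT replicate 3), modal ends 0.905 to 1.23 for IGHJ1 (any WT library) and 1.84 to 2.39 for IGHJ3 (WT replicate 2), switched shares -1.92 to -1.22 for IGHJ1 (KO replicate 1) and -1.32 to -0.657 for IGHJ4 (WT replicate 2), IGHJ3 framework 4 mutation -0.0684 to -0.0505 (any KO library), contrasts within libraries -0.772 to -0.507 for the IGHJ1 remaining part (KO replicate 4), -1.44 to -0.816 for IGHJ1 switching (any of 5 libraries) and 0.220 to 0.737 for IGHJ4 switching (WT replicate 2), and 7 to 13 IGHD-IGHJ pairs. Same-numbered WT and KO libraries did not deviate together (correlations of -0.110, -0.117, -0.0449 and -0.148 over 155 pairs). Libraries of a group share clones, so these deviations can be mostly sampling. Whether the numbers pair libraries cannot be told from them. The fit with the replicate block called 90 IGHV-IGHJ and 15 IGHD-IGHJ pairs. The number of cells per library and J gene, at least 724, limits the precision of shares.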
